A study of Mus musculus with 8 samples.

Results

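The genes examined were the 10 regulators of the G1 phase of the cell cycle that were followed in splenic T cells with and without SDHA: the D-type cyclin genes Ccnd2 and Ccnd3, their kinases Cdk4 and Cdk6, the cyclin E gene Ccne1, the retinoblastoma gene Rb1, the transcription factor gene E2f1, and the inhibitor genes Cdkn1a (p21), Cdkn1b (p27) and Cdkn2c (p18). They were picked by gene name, as 10 of the 20170 genes in the deposited count matrix. All 10 passed the filter on low counts in CD4 cells and in CD8 cells.

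The data are single-cell RNA sequencing of purified splenic T cells, in 8 libraries. WT cells came from B6 mice, and SDHA-KO cells came from B6 mice with Sdha fl/fl alleles and CD4-Cre, so that Cre was driven by the Cd4 promoter. This promoter is active in thymocytes that become CD4+ and CD8+ T cells, and γδ T cells mostly do not pass through that stage. Unstimulated cells were cultured alone. Stimulated cells received anti-CD3 at 5 μg/mL together with anti-CD28 at 2.5 μg/mL over 48 hours. Each combination of genotype and state had 2 libraries, numbered as replicates, and the labels do not say whether they came from different mice, so p values measure only the spread between these libraries, which may be technical. Each cell carried the authors' class, CD4 or CD8, and subset, which in stimulated cells was central memory (Tcm) or effector memory (Tem) and in unstimulated cells mostly naive.

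A resting T cell leaves quiescence when D-type cyclins pair with CDK4 or CDK6 and start to phosphorylate RB, which then releases E2F factors. E2F factors switch on cyclin E and the DNA replication genes, and cyclin E with CDK2 completes the phosphorylation of RB. INK4 proteins such as p18 bind CDK4 and CDK6, while the CIP/KIP proteins p21 and p27 bind cyclin-CDK complexes. In T cells p27 is abundant at rest and is removed after receptor stimulation, and p21 is the classical target of the stress-activated factor p53.

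Expression is given as unique molecular identifiers (UMIs, each standing for 1 captured mRNA) summed over the cells of a library and class and divided by the TMM-scaled total of that sum (CPM, UMIs per 1000000). Marker sums, ratios of Cdkn1a between states, and levels of clusters, quartiles and split cells were taken on the unscaled total instead. Totals ran from 6776027 to 34087903 UMIs in CD4 sums and from 3640136 to 22311319 in CD8 sums. Tests were edgeR's quasi-likelihood test, adjusted by Benjamini-Hochberg over all genes tested, and an adjusted p under 0.05 was called. The targeted gene Sdha was at 100.5 and 100.1 CPM in unstimulated WT CD4 cells against 49.8 and 49.4 in SDHA-KO, and at 74.0 and 73.1 against 26.5 and 26.4 after stimulation. Stimulated CD8 cells held 76.2 and 74.9 CPM of Sdha when WT, against 53.3 and 50.4 when SDHA-KO. In that SDHA-KO class 59.1% and 56.1% of the cells held a UMI of Trdc, the constant region of the γδ receptor, against 3.67% and 4.92% in WT, so stimulated SDHA-KO cells of the CD8 class were a mixture. The differences of the members between SDHA-KO and WT in the stimulated CD8 class are therefore given also for cells that held a Cd8a or Cd8b1 UMI and no Cd4 or Trdc UMI, called Cd8+ cells below, while UMIs per cell and quartiles of cells cover the whole class. The 5 B cell markers examined summed to 251 CPM in stimulated SDHA-KO CD8 replicate 1 and to 11.5 CPM in replicate 2, and their part in the results was not tested.

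Promoter sequence is shown for the CIP/KIP inhibitor genes, which moved apart between the genotypes, and for Ccnd3, the D-type cyclin gene that fell on stimulation. RefSeq promoter windows (GRCm38.p6) of 250 bases upstream of the start were read for 8 of the 10 members, and none was read for Ccnd2 and Rb1. Capitals mark matches to motifs searched on both strands, which were chosen after expression values were seen. They were the p53 response element of 20 letters with at most 1 letter off, the FOXO letters GTAAACA, the GC box GGGCGG, and an E2F motif of TTT, C or G at each of the next 2 letters, and CGC. No member's window held the E2F letters, which 1.86% of all windows held. The E2f1 window (chr2:154569427-154569676) lay inside the annotated E2f1 gene (chr2:154559407-154569892). The Cdk6 and Cdkn2c windows likewise lay inside their annotated genes, and the Ccne1 window overlapped its gene in part. For E2f1, Cdk6 and Cdkn2c the sequence upstream of the annotated gene was therefore not searched. The printed Cdkn1a window stops at the last base before the annotated gene. Its p53 match began 51 bases upstream of the RefSeq start, and the same motif was found in 25 of 32851 windows (0.0761%). Of 14 genes of a p53 target list with a window, Ccng1 was the only one with a match. The Ccnd3 window held 1 FOXO match, which 3.17% of all windows held, and 2 GC boxes, and the Cdkn1b window held 1 GC box, which 32.7% of all windows held. Cdkn1a and Ccnd3 each had a second window, at a different annotated start, which is not printed. The second Cdkn1a window (chr17:29093519-29093768) held 0 p53 matches and 2 GC boxes, and the second Ccnd3 window (chr17:47593217-47593466) held 0 FOXO matches and 1 GC box. A match is a description of the letters and not of a bound site.
Cdkn1a, chr17:29090729-29090975, plus strand: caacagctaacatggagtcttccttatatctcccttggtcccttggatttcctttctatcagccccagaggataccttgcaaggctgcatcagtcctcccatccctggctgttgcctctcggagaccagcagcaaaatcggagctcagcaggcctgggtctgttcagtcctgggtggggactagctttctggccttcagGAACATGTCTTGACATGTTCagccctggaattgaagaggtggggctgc
Cdkn1b, chr6:134920151-134920400, plus strand: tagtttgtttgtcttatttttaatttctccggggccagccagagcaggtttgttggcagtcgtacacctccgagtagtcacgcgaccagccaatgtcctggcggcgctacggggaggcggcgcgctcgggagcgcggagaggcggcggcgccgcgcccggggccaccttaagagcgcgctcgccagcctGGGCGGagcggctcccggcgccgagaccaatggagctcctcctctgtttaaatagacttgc
Ccnd3, chr17:47504801-47505050, plus strand: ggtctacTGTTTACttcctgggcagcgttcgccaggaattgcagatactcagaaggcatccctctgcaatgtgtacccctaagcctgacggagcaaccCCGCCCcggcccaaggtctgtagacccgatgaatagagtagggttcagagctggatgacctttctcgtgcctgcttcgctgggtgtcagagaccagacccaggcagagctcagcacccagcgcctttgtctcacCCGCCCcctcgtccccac

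The first comparison asked how the G1 regulators responded to 48 hours of stimulation in WT cells. In WT CD4 cells 9 of 10 members changed, 6 upward and 3 downward, where 66.3% of all genes tested changed (36.2% upward, 30.1% downward). The genes that start and complete the passage through G1 rose, except the D-type cyclins: Ccnd2 did not pass the test and Ccnd3 fell. In WT CD8 cells 8 of 10 members changed, 6 upward and 2 downward, beside 65.7% of all genes (35.5% upward, 30.3% downward). As a share of UMIs, Rb1 moved in opposite directions in the classes, down in WT CD4 cells and up in WT CD8 cells. The direction in WT CD4 cells depended on the scale, since limma on mean log values per cell called Rb1 upward there. In WT Cd8+ cells the same number of members rose (6) and fell (2), with Rb1 at 0.56, beside 35.6% of all genes upward and 32% downward there.

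Among the D-type cyclins and their kinases, Cdk6 rose most. In WT CD4 cells Cdk6 was at 22.4 and 23.8 CPM before and at 182 and 184 CPM after stimulation (log2 fold change 2.98 ± 0.09 SE), and in WT CD8 cells at 39.7 and 35.9 before and 302 and 294 after (2.98 ± 0.11). Cdk4 rose from 59.0 and 49.3 to 150.4 and 165.9 CPM in CD4 cells (1.55 ± 0.12) and from 61.7 and 69.4 to 135.7 and 145.3 in CD8 cells (log2 fold change 1.095). Libraries of the states did not overlap for either kinase. Ccnd3, the higher of the 2 D-type cyclin members at rest, fell from 588 and 439.6 to 183 and 192 CPM in CD4 cells (log2 fold change -1.45 ± 0.11) and from 531 and 422 to 161 and 158 in CD8 cells (-1.57 ± 0.10). Ccnd2, a cyclin gene induced by mitogens and cytokines, stayed between 279 and 323 CPM before and between 299.8 and 317 CPM after stimulation in WT CD4 cells, so that the states overlapped (log2 fold change 0.03 ± 0.11). In WT CD8 cells Ccnd2 was at 283 and 249.2 CPM before and 289.9 and 297 CPM after (0.14 ± 0.11).

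Cyclin E and E2F1, which act at the end of G1, rose from near absence. E2f1 was at 0.802 and 1.498 CPM in unstimulated WT CD4 cells and at 25.7 and 25.1 CPM after stimulation (log2 fold change 4.44 ± 0.20), and WT CD8 cells went from 1.14 and 1.34 to 24.9 and 24.7 CPM (4.30 ± 0.22). Ccne1 rose from 3.05 and 2.55 to 29.7 and 26.2 CPM in CD4 cells (3.32 ± 0.17) and from 5.14 and 9.15 to 33.9 and 35.2 in CD8 cells (2.23 ± 0.18). For both genes each stimulated library stood above each unstimulated one. Rb1, whose protein holds E2F factors inactive, went from 79.2 and 80.2 to 53.5 and 55.6 CPM in WT CD4 cells (log2 fold change -0.55 ± 0.09) and from 32.8 and 34.6 to 50.5 and 49.0 CPM in WT CD8 cells (0.56 ± 0.12). The WT classes thus stood apart in Rb1 before stimulation and lay close to each other after it. With limma on mean log values per cell the Rb1 value in WT CD4 cells was 0.07 and was called in the upward direction (adjusted p = 0.015 by limma).

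The inhibitors moved in opposite directions. Cdkn1b, the p27 gene, fell from 111.8 and 112.7 to 35.4 and 34.0 CPM in WT CD4 cells (log2 fold change -1.69 ± 0.12) and from 83.1 and 76.3 to 27.3 and 26.9 CPM in WT CD8 cells (-1.55 ± 0.19). Cdkn1a, the p21 gene, had few UMIs at rest and rose in both classes. The unstimulated WT CD4 libraries held 2 and 25 UMIs of Cdkn1a, and all 25 of replicate 2 lay in 1 cell, while the WT CD8 libraries held 0 and 4. After stimulation WT CD4 cells held 6696 and WT CD8 cells 6078 UMIs of Cdkn1a. On unscaled totals of the pooled libraries, the ratio of CPM in CD8 cells was 336 (95% interval 131 to 1235, counting error only). Without unstimulated WT replicate 1, which held 0 UMIs, this ratio was 190. In CD4 cells it was 64.1 with both unstimulated libraries, and 417 (115 to 3446) without replicate 2, an alternative chosen after seeing the data, so its size depended on that library. At the library level Cdkn1a was at 112.4 and 117.4 CPM in stimulated WT CD4 cells and at 97.8 and 142.6 CPM in CD8 cells, while the unstimulated CD4 libraries were at 0.321 and 3.75 CPM and 1 unstimulated WT CD8 library held no UMI. Cdkn2c, an INK4 inhibitor of CDK4 and CDK6, rose from 6.25 and 7.34 to 9.79 and 10.5 CPM in CD4 cells (log2 fold change 0.58 ± 0.16) and was at 7.43 and 8.25 before and 8.14 and 8.25 after in CD8 cells (0.06 ± 0.19). The rise of Cdkn2c in CD4 cells was not called by DESeq2 (adjusted p = 0.054), with cells matched to their class (0.44, adjusted p = 0.063 by edgeR), when thinned to equal totals (0.43, adjusted p = 0.065), or without stimulated WT replicate 2 or unstimulated WT replicate 1 (both 0.49). Among the members called in WT cells the adjusted p by edgeR was at most 0.0087 in CD4 cells (Cdkn2c) and 0.0019 in CD8 cells (Rb1).

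**Figure D1:**
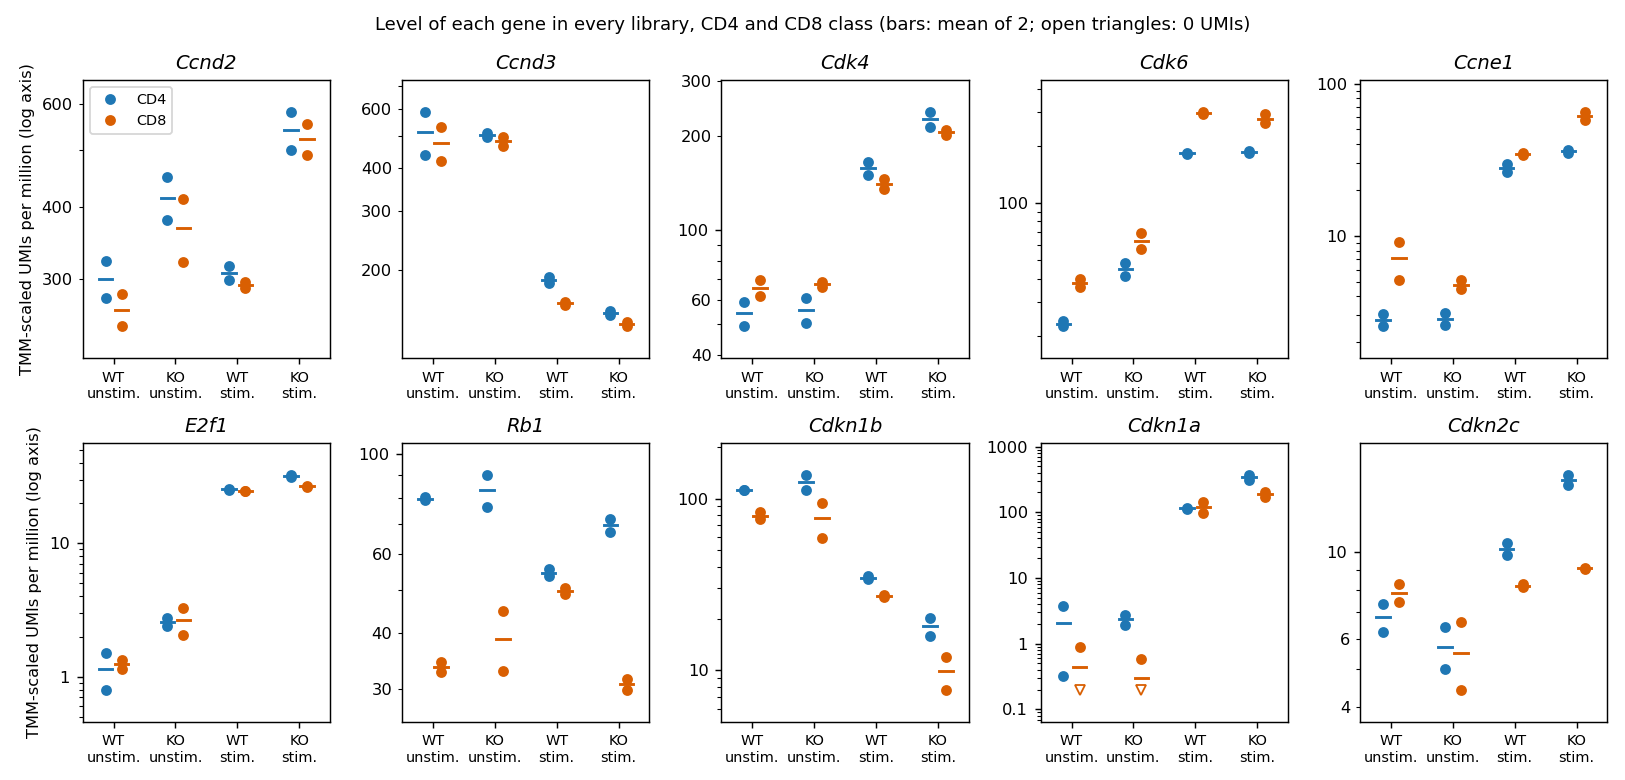
Level of each member in every library (TMM-scaled CPM, log axis) for the 4 groups, CD4 cells in blue and CD8 cells in orange, with bars at the mean of 2 libraries and open triangles at 0 UMIs. Cdk6, Cdk4, Ccne1, E2f1 and Cdkn1a stand higher and Ccnd3 and Cdkn1b lower in all stimulated libraries than in all unstimulated libraries of the same class, and Ccnd2 is highest in stimulated SDHA-KO cells.

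These values are shares of a library's UMIs, and the mean total per cell rose as well, from 7458 to 29757 UMIs per WT CD4 cell (3.99-fold). Median totals rose less, from 7055 and 7446 UMIs in the unstimulated WT CD4 libraries to 14753 and 14464 in the stimulated ones. Means per cell thus weigh cells with high totals, and the member values that follow are such means. Per cell, Ccnd3 went from 3.51 to 5.97 UMIs in WT CD4 cells and Cdkn1b from 0.769 to 1.11. Both means per cell were higher while the shares fell. In SDHA-KO CD4 cells Cdkn1b went from 1.01 to 0.502 UMIs per cell and was lower on both scales, and in SDHA-KO CD8 cells it went from 0.755 to 0.407. The mean of Rb1 per cell was 3.18-fold higher in stimulated than in unstimulated WT CD4 cells. With library size as the only scaling, the log2 fold change at the median gene moved from 0.08 to 0.30 in WT CD4 cells, where 54.6% of the calls were upward with TMM and 65.4% without it, and from 0.09 to 0.57 in WT CD8 cells, where that share moved from 54% to 75.6%. Ccnd2 was then at 0.26 and 0.63 in the classes and was called, as was Cdkn2c at 0.54 in CD8 cells. In SDHA-KO cells the upward share of calls moved from 52.4% to 62.8% in CD4 and from 54.6% to 66.3% in CD8 cells.

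In SDHA-KO cells all 10 members changed with stimulation in both classes, where 69.8% of all genes changed in CD4 cells (36.6% upward, 33.2% downward) and 68.2% in CD8 cells (37.2% upward, 30.9% downward). The 7 upward members were Cdkn1a, Ccne1, E2f1, Cdk6, Cdk4, Cdkn2c and Ccnd2, and the 3 downward ones were Cdkn1b, Ccnd3 and Rb1. Ccnd2 rose by a log2 fold change of 0.38 ± 0.11 in CD4 cells and 0.51 ± 0.11 in CD8 cells. Log2 fold changes in CD4 and CD8 cells were 3.64 and 3.69 for Ccne1, 3.63 and 3.31 for E2f1, 2.05 and 2.13 for Cdk6, 2.03 and 1.62 for Cdk4, 1.43 and 0.72 for Cdkn2c, and -1.75 and -1.79 for Ccnd3. Without unstimulated SDHA-KO replicate 2, Ccnd2 in CD4 cells (0.29) and Cdkn2c in CD8 cells (0.47) were not called. Cdkn1b fell by 2.79 on the log2 scale in CD4 cells and by 2.94 in CD8 cells. Cdkn1a went from 47 UMIs (18 and 29 in the libraries, at most 5 in a cell) to 23207 UMIs in CD4 cells, a ratio of CPM on unscaled totals of 168 (127 to 229). In CD8 cells Cdkn1a went from 2 to 6893 UMIs, a ratio of 754 (209 to 6229). Without unstimulated SDHA-KO replicate 1, which held 0 UMIs, the CD8 ratio was 379. Rb1 had a log2 fold change of -0.26 in CD4 cells and -0.33 in CD8 cells. With library size as the only scaling these were -0.04 and -0.05, and neither passed the test. With limma on mean log values per cell the values of Rb1 were 0.08 and 0.07, both called upward (adjusted p = 0.0080 and 0.012 by limma). In Cd8+ cells the value of Rb1 was -0.0017 and not called. The other 9 members were called there. The share of all genes called in Cd8+ cells is not given, and the 68.2% above belongs to the whole CD8 class, so this count has no matching share.

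Other cell cycle genes were counted by list, beside 36.2% of all genes upward and 30.1% downward in WT CD4 cells. Of 33 other G1 and G1/S regulators tested in WT CD4 cells, 22 rose and 2 fell on stimulation (median log2 fold change 0.88, beside 0.08 for all genes). Those that fell were Rbl2, the p130 gene of the RB family (-1.16), and Cdkn2d, another INK4 gene (-0.51). All 35 S phase genes and all 26 G2M genes rose, with medians of 3.22 and 7.01. Of 18 quiescence factors 13 fell, with the largest falls in S1pr1 (-6.27), Klf2 (-5.82) and Il7r (-3.87), and 2 rose (median -1.55). WT CD8 cells gave 20 rises and 5 falls among 32 other G1 regulators, and 13 falls and 1 rise among quiescence factors, where 35.5% of all genes rose and 30.3% fell. The S phase list held from 0.0349% to 0.0357% of all UMIs in unstimulated WT CD4 cells and from 0.257% to 0.262% after stimulation.

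The central comparison was SDHA-KO against WT after stimulation. In CD4 cells 9 of 10 members differed, where 43.2% of all genes differed (22.7% higher, 20.5% lower). Of these members 7 were higher in SDHA-KO cells, with the largest log2 difference in Cdkn1a, and Cdkn1b and Ccnd3 were lower. The CIP/KIP inhibitors thus moved apart: p21 mRNA was higher and p27 mRNA lower. In CD8 cells 6 of 10 members differed, beside 50.4% of all genes (26.8% higher, 23.5% lower), with Ccnd2, Ccne1, Cdkn1a and Cdk4 higher and Cdkn1b and Rb1 lower.

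Cdkn1a was at 112.4 and 117.4 CPM in stimulated WT CD4 cells and at 314.8 and 366 CPM in SDHA-KO cells (log2 fold change 1.57 ± 0.16, adjusted p = 2.9e-05 by edgeR). In CD8 cells Cdkn1a was at 97.8 and 142.6 CPM when WT and at 170.3 and 202 when SDHA-KO (0.63 ± 0.16). Among Cd8+ cells the difference of Cdkn1a was 1.57, with an adjusted p of 1.3e-06 by edgeR. No SDHA-KO library overlapped a WT library in any of these sets. Cdkn1b was at 35.4 and 34.0 CPM in WT CD4 cells and at 20.3 and 15.8 in SDHA-KO (log2 fold change -0.95 ± 0.12), and at 27.3 and 26.9 in WT CD8 cells and at 11.99 and 7.74 in SDHA-KO (-1.44 ± 0.20). The Cdkn1b difference among Cd8+ cells was -1.30. Cdkn2c was higher in SDHA-KO CD4 cells, at 14.9 and 15.7 CPM against 9.79 and 10.5 (0.59 ± 0.12), and lay at 9.12 and 9.04 against 8.14 and 8.25 in CD8 cells (0.15 ± 0.15) and at 0.13 among Cd8+ cells, neither called.

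Ccnd2 was higher in stimulated SDHA-KO cells of both classes. It stood at 317 and 299.8 CPM in WT CD4 cells and at 500.1 and 583 in SDHA-KO (log2 fold change 0.81 ± 0.11), and at 289.9 and 297 in WT CD8 cells and at 491 and 556 in SDHA-KO (0.84 ± 0.11). For Ccnd2 the Cd8+ cells gave 1.17. Ccnd3 was lower in SDHA-KO CD4 cells, at 148 and 152 CPM against 183 and 192 (-0.33 ± 0.11). In CD8 cells Ccnd3 was at 137 and 141 against 161 and 158 (-0.20 ± 0.10, not called), and among Cd8+ cells it was lower (-0.48). The 2 D-type cyclins therefore differed in opposite directions in CD4 cells and in Cd8+ cells.

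Cdk4 was at 150.4 and 165.9 CPM in WT CD4 cells and at 213.8 and 239 in SDHA-KO (log2 fold change 0.52 ± 0.10), and at 135.7 and 145.3 in WT CD8 cells and at 202 and 210.02 in SDHA-KO (0.55 ± 0.07). Cdk4 differed by 0.58 among Cd8+ cells. Cdk6 did not differ detectably in CD4 cells, at 182 and 184 CPM in WT and 187 and 183 in SDHA-KO (0.01 ± 0.07), nor in the whole CD8 class (-0.10 ± 0.08), and was lower among Cd8+ cells (-0.46). Rb1 was higher in SDHA-KO CD4 cells, at 71.8 and 67.3 CPM against 53.5 and 55.6 (0.35 ± 0.08). In CD8 cells Rb1 was lower, at 31.7 and 29.96 against 50.5 and 49.0 (-0.69 ± 0.10), and among Cd8+ cells it was also lower (-0.33, adjusted p = 0.044 by edgeR). E2f1 was at 31.3 and 32.4 CPM in SDHA-KO CD4 cells against 25.7 and 25.1 in WT (0.33 ± 0.10) and at 26.4 and 27.0 against 24.9 and 24.7 in CD8 cells (0.11 ± 0.09), with -0.14 among Cd8+ cells, neither called. Ccne1 was higher in SDHA-KO CD4 cells, at 35.1 and 36.6 CPM against 29.7 and 26.2 (0.36 ± 0.10), and in the CD8 class, at 58.0 and 65.2 against 33.9 and 35.2 (0.83 ± 0.11). In Cd8+ cells the Ccne1 value was 0.18 and not called.

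**Figure D2:**
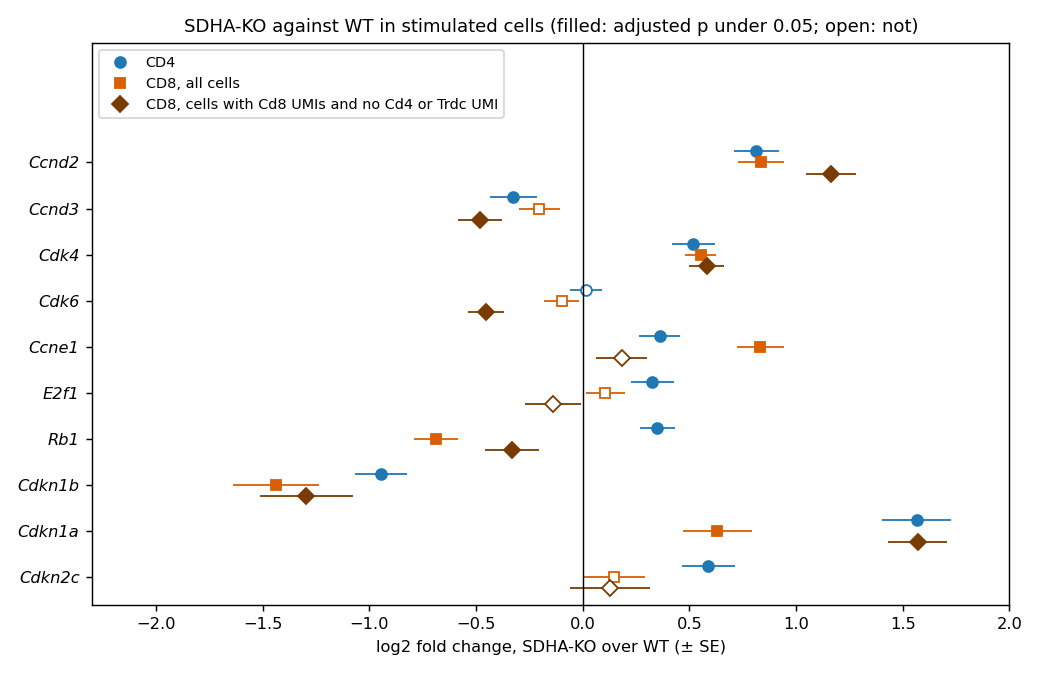
Log2 fold change of SDHA-KO over WT in stimulated cells (± SE, 2 libraries a group) for CD4 cells, all CD8 class cells, and Cd8+ cells without Cd4 or Trdc UMIs, with filled symbols where the adjusted p was under 0.05. Cdkn1a lies at 1.57 in CD4 and in Cd8+ cells and at 0.63 in the whole CD8 class, Cdkn1b lies below 0 and Ccnd2 and Cdk4 above 0 in all 3 sets, and Rb1 lies on opposite sides in CD4 and CD8 cells.

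As means per stimulated cell, SDHA-KO CD4 cells held 0.862-fold and SDHA-KO CD8 cells 1.43-fold the UMIs of WT cells. On the same scale Cdkn1b was at 0.454-fold and 0.50-fold, Cdkn1a at 2.60-fold and 2.12-fold, and Ccnd2 at 1.54-fold and 2.45-fold of WT. Median totals were higher in SDHA-KO in both classes. In CD4 cells they were 23669 and 24651.5 UMIs against 14753 and 14464 in WT, and in CD8 cells 30662 and 29912 against 13151.5 and 13265. The groups also differed in the mitochondrial share of UMIs: from 64.1% to 90.0% of SDHA-KO cells in a stimulated library and class had under 10% mitochondrial UMIs, against 24.3% to 41.0% of WT cells. Restricted to such cells, Cdkn1a (1.21), Ccnd2 (0.64), Cdkn1b (-1.04), Ccnd3 (-0.37) and Rb1 (0.45) still differed in CD4 cells, while Cdk4 (0.11), Ccne1 (0.07), E2f1 (0.24) and Cdkn2c (0.32) did not pass the test. In the CD8 class Cdkn1a (0.27) and Cdk4 (0.10) were then not called. By DESeq2 the CD4 differences of Cdkn1a (1.58, adjusted p = 0.15), Ccne1 (adjusted p = 0.085) and E2f1 (adjusted p = 0.14) were not called, and without stimulated WT replicate 1 the CD8 difference of Cdkn1a was 0.37 and not called. The Ccnd3 difference in CD4 cells lost its call when any of 6 of the 8 libraries was left out (-0.35 to -0.28).

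The split of the stimulated CD8 class shows which cells carried each level, with values as CPM of the split cells. SDHA-KO Cd8+ cells numbered 169 and 147 in the libraries, and SDHA-KO cells with a Trdc UMI and no Cd4 or Cd8 UMI (Trdc+ cells) numbered 172 and 117. Sdha was at 33.4 and 30.7 CPM in SDHA-KO Cd8+ cells and at 72.9 and 77.7 in SDHA-KO Trdc+ cells, beside 90.1 and 85.3 in WT Cd8+ cells. Cdkn1a was at 354 and 434 CPM in SDHA-KO Cd8+ cells and at 89.1 and 46.4 in SDHA-KO Trdc+ cells, beside 118 and 152 in WT Cd8+ cells. The SDHA-KO Trdc+ cells thus stood below both sets of Cd8+ cells in Cdkn1a. Ccnd2 was likewise high in SDHA-KO Cd8+ cells, at 710.2 and 797 CPM, and lower in SDHA-KO Trdc+ cells, at 418 and 426, with WT Cd8+ cells at 349 and 337. Ccne1 showed the reverse, with 44.1 and 45.9 CPM in SDHA-KO Cd8+ cells, 74.2 and 94.7 in SDHA-KO Trdc+ cells, and 40.8 and 40.02 in WT Cd8+ cells. Cdkn1b was low in both SDHA-KO sets, at 15.8 and 9.35 CPM in Cd8+ cells and at 10.1 and 9.44 in Trdc+ cells, against 32.3 and 31.8 in WT Cd8+ cells. WT Trdc+ cells numbered 17 and 16, with Sdha at 80.6 and 76.6 CPM. Their Cdkn1a, at 178 and 319 CPM, stood above that of WT Cd8+ cells. In WT Trdc+ cells Ccnd2 was at 352 and 387 CPM, Ccne1 at 42.9 and 62.5, and Cdkn1b at 39.4 and 32.3. The Trdc+ cells were described without a test.

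**Figure D3:**
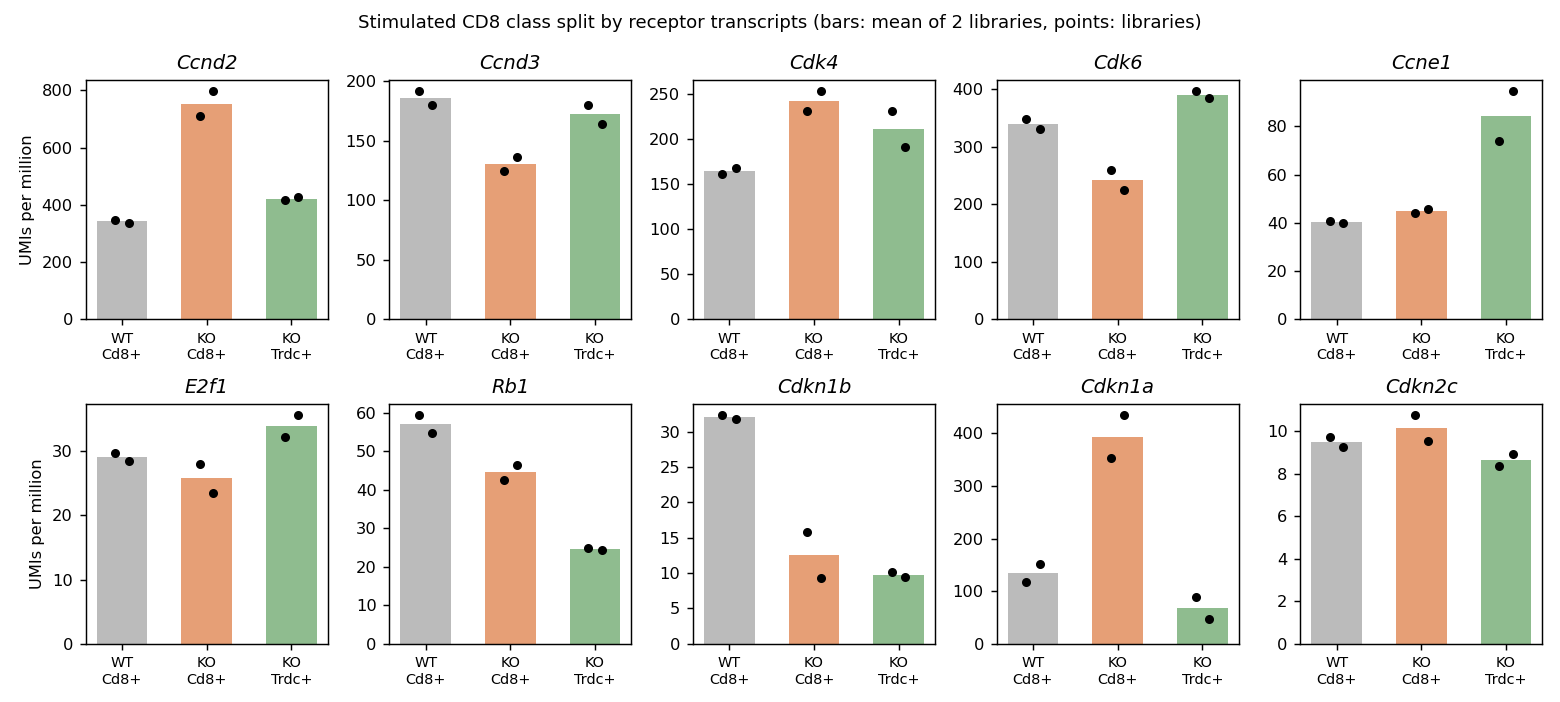
CPM of each member in the stimulated CD8 class split by receptor transcripts (bars, mean of 2 libraries; points, libraries): WT and SDHA-KO cells with Cd8 and without Cd4 or Trdc UMIs, and SDHA-KO cells with Trdc and without Cd4 or Cd8 UMIs. Cdkn1a and Ccnd2 are highest in SDHA-KO Cd8+ cells, Ccne1 is highest in SDHA-KO Trdc+ cells, and Cdkn1b is low in both SDHA-KO sets.

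Lists of related genes were counted in the same comparison, where 22.7% of all genes were higher and 20.5% lower in SDHA-KO CD4 cells. Of 33 other G1 and G1/S regulators tested in stimulated CD4 cells, 7 were higher and 2 lower in SDHA-KO (median log2 fold change 0.06, beside -0.00 for all genes). The largest rises were in Rbl2 (0.50), Cdc25a, the phosphatase that activates CDK2 (0.47), and Cks1b, a CDK-binding cofactor of p27 destruction (0.40), and the falls were in Ccnh, the cyclin of the CDK-activating kinase (-0.42), and Lin9 (-0.24). Of 35 S phase genes 13 were higher and none lower (median 0.19), and the list took 0.312% of all UMIs in both SDHA-KO libraries. Of 26 G2M genes 5 were higher and 7 lower (median -0.18). Of 19 p53 targets 16 were higher and 3 lower (median 1.38), led by Phlda3 (3.44), Ccng1 (2.03) and Zmat3 (1.93), while Ddit4 (-1.01) and Sesn1 (-0.25) were among the lower ones. Of 18 quiescence factors 8 were higher, with Klf2 at 1.52 and Il7r at 1.36, and 2 were lower (median 0.26).

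In the stimulated CD8 class, Trdc+ cells included, 26.8% of all genes were higher and 23.5% lower in SDHA-KO. There the other G1 regulators gave 13 higher and 4 lower of 32 (median 0.19), S phase genes 18 higher and 3 lower of 35 (0.32), and G2M genes 8 higher and 9 lower of 26 (-0.12). The largest rises among G1 regulators were in Cdc25a (0.77), Ccna2, the S phase cyclin A (0.65), and E2f4, a repressive E2F (0.65), and the largest falls were in Tfdp2, a partner of E2F factors (-0.67), and E2f2 (-0.54). Of 18 p53 targets 10 were higher and 3 lower (median 0.43), with Phlda3 at 2.65 and Ccng1 at 1.45. Quiescence factors gave 2 higher and 10 lower of 18 (median -0.36), with Foxo1, a transcription factor that maintains quiescence, at -0.73. The same counts among Cd8+ cells, chosen after seeing the data, were different for several lists, beside 25% of all genes higher and 24.4% lower there. Of 18 quiescence factors 5 were then higher and 4 lower (median -0.05), of 26 G2M genes 4 were higher and 18 lower (median -0.54), and of 35 S phase genes 7 were higher and 8 lower (median -0.05). The other G1 regulators gave 8 higher and 7 lower of 31 (median 0.04), and p53 targets 14 higher and 2 lower of 18 (median 1.05). These lists were written with earlier results of these data known, so their directions are not independent evidence.

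Within subsets, the Cdkn1b, Ccnd2, Ccnd3 and Rb1 differences between SDHA-KO and WT were called in all 4 stimulated sets with all cells of each set. In CD4 Tcm cells 7 of 10 members differed (25.1% of all genes), in CD4 Tem cells 6 (31.7%), in CD8 Tcm cells 5 (27.9%), and in CD8 Tem cells 5 (33.4%). Cell numbers were unequal, with 540 and 594 CD4 Tcm cells in WT libraries against 236 and 223 in SDHA-KO, and 319 and 373 CD4 Tem cells against 901 and 1061. Subsets were the authors' annotation of clusters. With library size as the only scaling the upward share of all calls moved from 50.9% to 76.7% in CD4 Tcm, 49.1% to 76.1% in CD4 Tem, 51.6% to 64.9% in CD8 Tcm and 51.1% to 65.2% in CD8 Tem cells.

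Cdkn1b was at 30.7 and 33.0 CPM in WT CD4 Tcm cells and at 11.9 and 15.2 in SDHA-KO (log2 fold change -1.27 ± 0.16), and in CD4 Tem cells at 43.5 and 40.2 against 23.99 and 18.0 (-1.01 ± 0.15). In CD8 Tcm cells the Cdkn1b difference was -1.29 ± 0.20 and in CD8 Tem cells -1.66 ± 0.18. SDHA-KO libraries stood below WT libraries in each subset. Cdkn1a was at 43.0 and 48.5 CPM in WT CD4 Tcm cells and at 139.6 and 157 in SDHA-KO (1.66 ± 0.10), and at 173 and 178 against 378 and 438 in CD4 Tem cells (1.20 ± 0.08). In CD8 Tcm cells Cdkn1a was at 47.5 and 59.0 against 96.3 and 54.4 (0.49 ± 0.23), and in CD8 Tem cells at 181 and 246 against 232 and 284 (0.24 ± 0.15), and neither was called. The genotypes overlapped in both CD8 subsets. Restricted to Cd8+ cells, Cdkn1a was higher in SDHA-KO in CD8 Tcm (1.5) and CD8 Tem cells (1.14), and Cdkn1b was lower in CD8 Tem cells (-1.51) and at -1.09 and not called in CD8 Tcm cells (adjusted p = 0.058 by edgeR).

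Rb1 had the sign of its class in the subsets, at 0.63 ± 0.09 in CD4 Tcm, 0.48 ± 0.08 in CD4 Tem, -0.57 ± 0.12 in CD8 Tcm and -0.58 ± 0.08 in CD8 Tem cells. In CD4 Tcm cells under the 10% mitochondrial limit Rb1 was at 0.11 and not called (adjusted p = 0.67 by edgeR). With Cd8+ cells only, Rb1 was at -0.18 in CD8 Tcm and -0.12 in CD8 Tem cells and neither was called. The Rb1 levels in CD4 Tcm cells were 70.5 and 74.9 CPM in WT and 114.3 and 116.2 in SDHA-KO. Ccnd2 differences ran from 0.57 to 0.71 and Ccnd3 differences from -0.60 to -0.31 over the 4 sets. With cells matched to their class, Ccnd2 in CD4 Tcm cells was at 0.41 and not called (adjusted p = 0.059 by edgeR). Ccnd3 in CD4 Tem cells was not called with library size only (-0.16, adjusted p = 0.11 by edgeR) or without stimulated WT replicate 2 (-0.33). In CD8 Tem cells Ccnd3 was not called without stimulated SDHA-KO replicate 2 (-0.29). With Cd8+ cells only, Ccnd2 was at 0.88 in CD8 Tcm and 0.95 in CD8 Tem cells and Ccnd3 at -0.66 and -0.63, all called. In the CD8 Tcm set, leaving out either WT library ended the calls of Ccnd2 (0.75 and 0.65), Ccnd3 (-0.56 and -0.64), Rb1 (-0.60 and -0.57) and Ccne1 (0.59 and 0.81). E2f1 was called in opposite directions in the CD4 subsets, at 16.1 and 13.3 CPM in SDHA-KO against 22.8 and 21.6 in WT CD4 Tcm cells (-0.62 ± 0.16), and at 37.3 and 38.8 against 31.4 and 31.3 in CD4 Tem cells (0.27 ± 0.08). Neither call of E2f1 held by DESeq2 (adjusted p = 0.21 and 0.17), when thinned to equal totals, or when either stimulated WT library or replicate 2 of SDHA-KO was left out. The Tcm call was also lost with library size only (-0.41) and under the mitochondrial limit (adjusted p = 0.27 by edgeR), and the difference between the subsets was not tested. In CD8 Tcm and Tem cells E2f1 was at 0.04 and -0.05, neither called. Ccne1 was higher in SDHA-KO in CD4 Tcm (0.64), CD8 Tcm (0.70) and CD8 Tem cells (0.52), and its value in CD4 Tem cells was 0.03. The CD4 Tcm value of Ccne1 was not called by DESeq2 (adjusted p = 0.19), when thinned, or when WT replicate 1 (0.66) or 2 (0.58) or replicate 2 of SDHA-KO (0.39) was left out. Cdk6 ran from -0.05 to 0.18 and Cdkn2c from -0.12 to 0.78 over the 4 sets, none called. In Cd8+ cells Ccne1 was at 0.42 in the Tcm and -0.18 in the Tem subset, neither called.

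**Figure D4:**
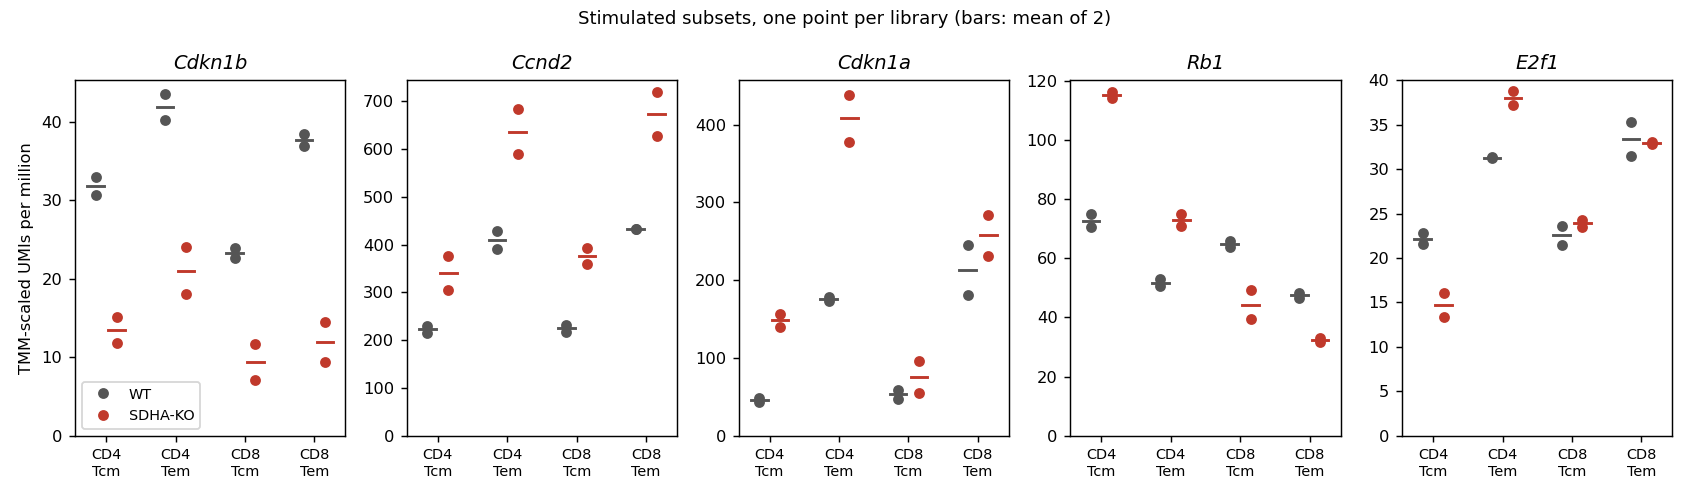
Cdkn1b, Ccnd2, Cdkn1a, Rb1 and E2f1 in stimulated Tcm and Tem cells of each class (TMM-scaled CPM; points, libraries; bars, mean of 2), WT in grey and SDHA-KO in red. Cdkn1b is lower and Ccnd2 higher in SDHA-KO in all 4 sets, Cdkn1a is separated in the CD4 sets, and Rb1 is higher in SDHA-KO in CD4 sets and lower in CD8 sets.

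Cdk4 was the member whose KO difference was called in both classes and in none of their subsets (0.11 to 0.33), although among Cd8+ cells it was called in CD8 Tcm cells (0.83). Its level differed between subsets within a genotype, with a mean of 41.2 ± 1.4 CPM (SD, n = 2) in WT CD4 Tcm and 255 ± 18 in WT CD4 Tem cells, and 51.3 ± 2.0 and 277 ± 20 in SDHA-KO. In the same libraries Tem cells made up a larger share of the SDHA-KO than of the WT CD4 cells, and the part of this in the class difference was not tested. Cdk6 showed the reverse, at 245 ± 12 CPM in WT CD4 Tcm and 173 ± 1.6 in Tem cells, and at 387 ± 8.3 and 285 ± 5.3 in WT CD8 cells. Levels of single clusters were taken on unscaled totals, so they are not set against these TMM-scaled subset means. Over the 10 clusters of stimulated WT CD4 cells with enough cells, Cdk6 ran from 79.6 CPM in Tem3 to 788 in Tcm5. Cdk4 ran from 32.1 in Tcm5 to 248.7 in Tem3. Since clusters were drawn from expression in the same cells, these levels are a description without a test.

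Before stimulation the genotypes differed little. Only Cdk6 was called among the 10 members, in CD4 cells (1.1% of all genes differed) and in CD8 cells (0.947%). Cdk6 was at 22.4 and 23.8 CPM in WT CD4 cells and at 48.1 and 41.4 in SDHA-KO (log2 fold change 0.95 ± 0.10, adjusted p = 0.0018 by edgeR), and at 39.7 and 35.9 in WT CD8 cells against 69.3 and 57.4 (0.75 ± 0.13, adjusted p = 0.022 by edgeR). Ccnd2 was at 323 and 279 CPM in WT CD4 cells and at 451 and 379 in SDHA-KO (0.46 ± 0.11, adjusted p = 0.072 by edgeR), and at 283 and 249.2 against 413 and 322 in CD8 cells (0.47 ± 0.12, adjusted p = 0.094). The remaining members ranged from -0.73 to 1.14 in log2 fold change, none called, with E2f1 at 1.14 in CD4 cells from levels of at most 2.74 CPM.

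In naive cells alone, where 9 members passed the filter in CD4 and 8 in CD8 cells, Cdk6 and Ccnd2 were both called and the others were not. Those others ran from -0.41 (Ccne1) to 1.03 (E2f1) in CD4 and from -0.64 (Cdkn2c) to 0.29 (Rb1) in CD8 cells. Cdk6 was at 18.9 and 19.7 CPM in WT naive CD4 cells and at 37.7 and 34.5 in SDHA-KO (0.84 ± 0.14), and Ccnd2 at 359 and 317 against 530.1 and 436 (0.46 ± 0.11), where 3.57% of all genes differed. In naive CD8 cells Cdk6 was at 40.6 and 37.0 CPM against 73.1 and 64.4 (0.83 ± 0.14) and Ccnd2 at 309 and 275 against 482 and 361 (0.53 ± 0.10), where 5% of all genes differed. Ccnd2 was not called in naive CD4 cells without unstimulated WT replicate 1 (0.55) or 2 (0.37), nor in naive CD8 cells by DESeq2 (adjusted p = 0.39) or without WT replicate 2 (0.44). With library size as the only scaling the upward share of all calls moved from 29.8% to 73% in unstimulated CD8 cells and from 26.5% to 61.5% in naive CD8 cells. Regulatory T cells, for which no test was planned, held 53.5 and 43.9 CPM of Cdk6 when WT, against 152 and 104 when SDHA-KO. Without unstimulated WT replicate 1 the CD4 class difference of Cdk6 was 0.92 (adjusted p = 0.058 by edgeR), and the CD8 one was not called without SDHA-KO replicate 1 (0.62) or WT replicate 1 (0.84) or 2 (0.68). In unstimulated SDHA-KO CD8 cells 19.7% and 15.2% held a Trdc UMI, while among Cd8+ cells Cdk6 still differed (0.66).

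The KO difference changed with stimulation for several members. In CD4 cells 3 of 10 members differed between the states (21.4% of all genes): Cdk6 lost its difference (-0.93 ± 0.13), Cdkn1b gained a negative one (-1.09 ± 0.17) and Cdkn2c a positive one (0.85 ± 0.23). In CD8 cells 5 of 10 did (23.8% of all genes), with Cdk6 at -0.85 ± 0.15, Cdkn1b at -1.39 ± 0.29, Rb1 at -0.89 ± 0.18, Ccne1 at 1.46 ± 0.33 and Cdk4 at 0.52 ± 0.12. The other members were between -0.82 (E2f1) and 1.38 (Cdkn1a) in CD4 and between -0.99 (E2f1) and 1.36 (Cdkn1a) in CD8 cells, none called. For Cd8+ cells the changes of Rb1 (-0.56) and Ccne1 (0.61) were not called, while Cdk6 (-1.12), Cdkn1b (-1.22), Cdk4 (0.46) and Ccnd2 (0.67) were. Without unstimulated WT replicate 2 the CD8 change of Ccne1 was 0.93 (adjusted p = 0.15 by edgeR) and without SDHA-KO replicate 2 it was 1.34 (adjusted p = 0.065). Cdk4 in CD8 cells was at 0.06 under the 10% mitochondrial limit (adjusted p = 0.80), at 0.33 with library size only, and at 0.48 and 0.42 without unstimulated SDHA-KO or WT replicate 2, called in none of these. In CD4 cells the change of Cdkn2c was not called by DESeq2 (adjusted p = 0.070), under the mitochondrial limit (0.58), or without unstimulated SDHA-KO replicate 2 (0.68), unstimulated WT replicate 2 (0.73) or stimulated WT replicate 1 (0.84). The larger KO difference of Cdkn1a after stimulation did not pass the test (1.38 ± 0.63 in CD4 cells), with 27 and 47 unstimulated UMIs of Cdkn1a in WT and SDHA-KO. The upward share of all calls in CD8 cells moved from 56.9% to 32.7% with library size as the only scaling.

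The KO difference in CD8 cells was then set against that in CD4 cells. After stimulation the KO difference of 5 members differed between CD8 and CD4 cells (25.4% of all genes): Rb1 (-1.03 ± 0.08), Cdkn1a (-0.91 ± 0.11), Cdkn1b (-0.51 ± 0.13), Cdkn2c (-0.43 ± 0.14) and Ccne1 (0.47 ± 0.13), each as CD8 minus CD4. With only cells whose receptor UMIs matched their class, Cdkn1a was at 0.07 and Ccne1 at -0.07, so neither differed detectably between the classes, and Cdkn1b (-0.39) and Cdkn2c (-0.46) were not called. The call of Cdkn2c was lost whichever of the 4 stimulated libraries was left out (-0.50 to -0.40), by DESeq2 (adjusted p = 0.51) and under the 10% mitochondrial limit (-0.41), and its value when thinned to equal totals was -0.04 (adjusted p = 0.97 by edgeR). Ccne1 was not called by DESeq2 (adjusted p = 0.23), when thinned (0.51, adjusted p = 0.079) or without stimulated WT replicate 1 (0.34), nor Cdkn1b by DESeq2 (adjusted p = 0.071) or without stimulated SDHA-KO replicate 2 (-0.41). With matched cells Rb1 (-0.68) was called, and Ccnd2 (0.35), Cdk6 (-0.48) and E2f1 (-0.57) were called in addition. With all cells the 5 members not called ran from -0.21 (E2f1) to 0.13 (Ccnd3). With library size as the only scaling the upward share of all calls moved from 56.1% to 38.5%.

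WT cells of the classes also differed from each other. In unstimulated WT cells 4 members differed (15.2% of all genes): Cdk6 (0.73 ± 0.11) and Ccne1 (1.41 ± 0.31) were higher in CD8 cells, and Rb1 (-1.21 ± 0.09) and Cdkn1b (-0.47 ± 0.09) lower. Without unstimulated WT replicate 2, Ccne1 was at 0.77 (adjusted p = 0.43 by edgeR) and Cdkn1b at -0.41, neither called. After stimulation of WT cells 4 members differed (26% of all genes), again Cdk6 (0.76 ± 0.04), Ccne1 (0.37 ± 0.09) and Cdkn1b (-0.30 ± 0.07), with Ccnd3 at -0.17 ± 0.04, while Rb1 was at -0.08 ± 0.05 and not called. Without stimulated WT replicate 2 the calls of Ccne1 (0.25), Cdkn1b (-0.31) and Ccnd3 (-0.13) were lost, without replicate 1 that of Cdkn1b (-0.28), and by DESeq2 those of Ccne1 and Cdkn1b (adjusted p = 0.26 and 0.13). Under the 10% mitochondrial limit Ccnd3 was at -0.02 and Cdkn1b at -0.19, neither called. In unstimulated SDHA-KO cells 4 members differed (14.9% of all genes), namely Cdk6 (0.54), Cdk4 (0.32), Cdkn1b (-0.65) and Rb1 (-1.05), of which Cdk4 was not called when 1 or the other SDHA-KO library was left out (0.43 and 0.22). In stimulated SDHA-KO cells 6 differed (49.2% of all genes), with Cdk6 (0.65) and Ccne1 (0.84) higher and Rb1 (-1.11), Cdkn1b (-0.81), Cdkn1a (-0.81) and Cdkn2c (-0.69) lower in CD8 cells, and Ccnd2, Ccnd3, Cdk4 and E2f1 between -0.19 and 0.01. With cells matched to their class Cdkn1a was at 0.16 in that comparison and not called. Library size as the only scaling moved the upward share of all calls from 52.6% to 21.9% in unstimulated WT, 48.2% to 34.9% in unstimulated SDHA-KO and 46.8% to 62.9% in stimulated WT cells.

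Within each stimulated library, cells were ranked by their share of UMIs on the S phase list and on the G2M list, and the highest quartile was set against the lowest, as a description without a test. Ccne1 and E2f1 were higher in the highest S phase quartile in 8 of 8 library and class sets. From the lowest to the highest quartile mean Ccne1 went from 12.6 to 43.0 CPM in WT CD4 cells and from 9.76 to 72.4 CPM in SDHA-KO CD4 cells, and E2f1 from 12.496 to 37.1 and from 8.42 to 61.0. Log2 ratios here and below are ranges over genotype and class, each taken from the means of 2 libraries, so single libraries can lie outside them. Cdk4 was also higher in 8 of 8 sets, with a log2 ratio from 0.16 to 1.08. Cdkn1b was higher in 1 of 8 sets, SDHA-KO CD8 replicate 2 (8.29 to 9.74 CPM), with ratios of means from -0.55 to -0.06.

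The G2M ranking gave another order. Cdkn1b was higher in the highest G2M quartile in 8 of 8 sets (log2 ratio 0.32 to 0.58), as were Cdkn2c (0.51 to 2.12), Ccnd3 (0.18 to 0.35) and Cdk6 (0.01 to 0.55), while Ccnd2 was higher in 0 of 8 (-0.78 to -0.36). Cdkn2c went from a mean of 6.52 to 28.3 CPM in SDHA-KO CD4 cells. Cdkn1a differed between sets: in SDHA-KO CD8 cells it was lower in the highest than in the lowest S phase quartile, at 151 against 370.5 CPM, whereas in SDHA-KO CD4 cells it was at 412 against 372. The SDHA-KO CD8 quartiles hold both Cd8+ and Trdc+ cells, and the part of that in the Cdkn1a values was not tested. Thinning each cell to 5000 UMIs left out 160 SDHA-KO CD4, 10 SDHA-KO CD8, 38 WT CD4 and 5 WT CD8 cells with fewer. After it, Ccne1 and E2f1 stayed higher in 8 of 8 sets by the S phase list and Cdkn1b in 8 of 8 by the G2M list, while Ccnd3 was then higher in 6 of 8, Cdk6 and Cdkn2c in 7 of 8 by the G2M list, and Cdk4 in 7 of 8 and Cdkn1b in 3 of 8 by the S phase list.

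**Figure D5:**
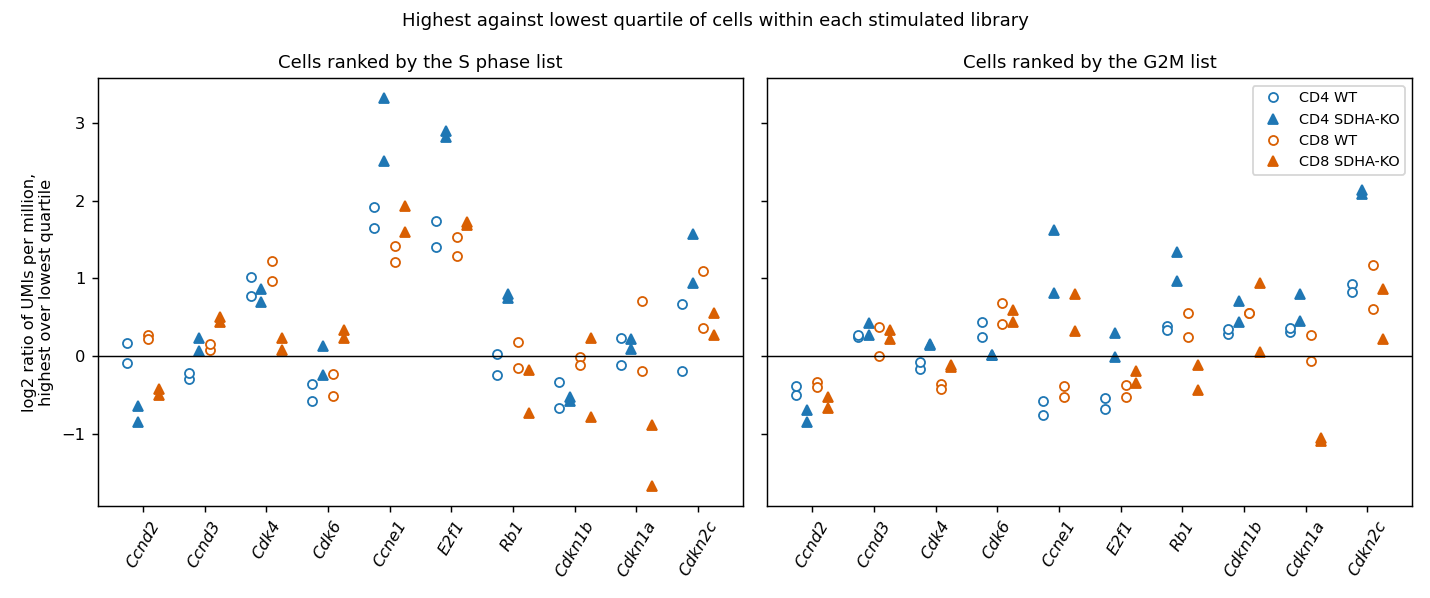
Log2 ratio of CPM between the highest and the lowest quartile of cells within each stimulated library and class, ranked by the S phase list (left) or the G2M list (right), with 1 symbol per library. Ccne1 and E2f1 lie above 0 in all 8 sets on the left, and on the right Ccnd2 lies below 0 in all 8 sets.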

How the data were processed

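Libraries were made with 10x Genomics 3′ HT v3.1 chemistry. The authors demultiplexed with bcl2fastq, ran Cell Ranger (mm10 in the submitters' processing notes; version not given in the sources used here) and combined libraries with Seurat. Cells with too many detected genes and clusters lacking CD3 were dropped by them. The deposited matrix holds UMI counts, not normalized by the authors. The deposited cell table also gave the UMI count, the percent of UMIs on mitochondrially encoded genes, the CD4 or CD8 class and the subset of each cell (the authors' annotation). It held 12846 cells, and 23 barcodes occurred in 2 libraries. No doublet caller was run here, and no sample was left out.

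UMIs were summed per library and class, or per library, class and subset. Genes were kept with filterByExpr (minimum count 10, minimum total 15) and tested with edgeR 4.0.16 in R 4.3.3, with TMM, in fits of the 4 groups per class, of both classes with the library as a block, and of single subsets. The procedure was tested on simulated data. Alternatives used DESeq2 1.42.0, limma 3.58.1, other scalings, filters and cell sets, replicate blocks, and each library left out. The summed counts of replicates differed by more than sampling noise (chi-square per degree of freedom 1.54 to 13.6). Same-numbered libraries did not deviate together over genes (correlations -0.160 to 0.0394), and the number was not used as a pair in the main fits. Low correlations cannot exclude shared mice or handling, which the labels do not give. Intervals cover counting error only.

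The members and the gene lists were chosen with earlier results of these data known. By the rule for named genes all 10 members were to be named in every comparison; in several, members that were not called are given by their range or count only. Of each list the 3 called genes with the largest rise and the 3 with the largest fall at a mean of at least 5 CPM could be named. Cdkn1a ratios without 1 library and list counts in Cd8+ cells were added after seeing the data. Quartiles, splits and levels by cluster (at least 20 cells in a library) were described without tests. Plots were drawn with matplotlib 3.10.9.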

Additional observations from a re-analysis of the deposited data

Results flagged for a closer look

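The KO difference (SDHA-KO against WT, log2, edgeR's quasi-likelihood test of the difference itself) was not the same between settings in 13 results, each of 1 member in 1 comparison. Between stimulated and unstimulated CD4 cells it differed for Cdkn2c (0.85), Cdk6 (-0.93) and Cdkn1b (-1.09). A positive value means that the signed log2 value of SDHA-KO over WT was higher after stimulation than before, and a negative value that it was lower. Between the states in CD8 cells it differed for Cdk6 (-0.85), Cdkn1b (-1.39), Ccne1 (1.46), Cdk4 (0.52) and Rb1 (-0.89). Between stimulated CD8 and CD4 cells, as CD8 minus CD4, it differed for Cdkn2c (-0.43), Cdkn1b (-0.51), Ccne1 (0.47), Rb1 (-1.03) and Cdkn1a (-0.91). With only cells whose receptor UMIs matched their class, Cdkn1a was at 0.0654 (adjusted p = 0.73) and Ccne1 at -0.0660 (adjusted p = 0.77), and neither these nor Cdkn1b and Cdkn2c were called. For Cdk6 the CD4 value rests on unstimulated levels of 22.4 and 23.8 CPM in WT and 48.1 and 41.4 in SDHA-KO, which were nearly equal after stimulation. Groups of 2 libraries were too small for a search for outlying samples.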

How the results depend on the processing

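Of 112 calls of a member in a comparison, 63 held under all alternatives and 78 whichever library was left out, and of 95 members not called 43 were called under some alternative; directions were followed for called values only. Values of opposite direction came with limma on mean log values for Rb1 on stimulation (0.0712 in WT CD4, 0.0819 in SDHA-KO CD4, 0.0721 in SDHA-KO CD8 cells) and with cells matched to their class for Cdkn1a in CD8 against CD4 stimulated SDHA-KO cells (0.16), for Ccne1 (-0.0660) and Cdkn1a (0.0654) in the class difference, and for Ccne1 in CD8 Tem cells (-0.18). The causes were not tested.

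The number of members called moved by over 1.5 times in these settings. The share of all genes called in each setting is not given beside them, so a moved count is not read as particular to the members. For SDHA-KO against WT, stimulated CD4 cells gave 5 under the 10% mitochondrial limit; unstimulated CD4 cells gave 2 by DESeq2, without a filter, thinned, or with only the groups compared, and 0 by limma; unstimulated CD8 cells gave 2 in those 4 settings and with library size only; naive CD8 cells gave 1 by DESeq2. The difference between states in CD4 cells gave 6 without a filter or by limma and 5 with matched cells, and the class difference gave 2 by DESeq2 and 3 when thinned. CD8 against CD4 gave 7 in unstimulated WT cells with only the groups compared and 2 in stimulated WT cells by DESeq2.

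With 1 library left out, the remaining library of its group was taken to vary like the other groups. The share of all genes called in these fits is not given either, and the counts are not read as particular to the members. Members called on stimulation were then 8 to 9 (WT CD4), 8 to 8 (WT CD8), 8 to 10 (SDHA-KO CD4) and 8 to 10 (SDHA-KO CD8). For SDHA-KO against WT after stimulation they were 6 to 9 (CD4), 5 to 7 (CD8), 5 to 8 (CD4 Tcm), 4 to 6 (CD4 Tem), 1 to 7 (CD8 Tcm; 1 without WT replicate 1 or 2) and 4 to 5 (CD8 Tem). Unstimulated they were 0 to 1 (CD4; 0 without WT replicate 1), 0 to 1 (CD8; 0 without SDHA-KO replicate 1, WT replicate 1 or WT replicate 2), 1 to 4 (naive CD4; 1 without either WT replicate, 4 without SDHA-KO replicate 1) and 1 to 3 (naive CD8; 1 without WT replicate 2). Differences between states were 2 to 5 (CD4; 5 without stimulated SDHA-KO or unstimulated WT replicate 1) and 3 to 6 (CD8; 3 without unstimulated SDHA-KO or WT replicate 2), and the class difference 3 to 5 (3 without stimulated SDHA-KO replicate 2 or WT replicate 1). CD8 against CD4 gave 6 to 7 (stimulated SDHA-KO), 1 to 4 (stimulated WT; 1 without replicate 2), 3 to 5 (unstimulated SDHA-KO) and 2 to 5 (unstimulated WT; 2 without replicate 2).

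With the replicate number as a block, 2 calls were lost, Ccne1 in CD4 Tcm cells (0.63, adjusted p = 0.055 by edgeR) and E2f1 in CD4 Tem cells (0.27, adjusted p = 0.075), and a block by genotype and number changed none. Depth limits Cdkn1a and E2f1 at rest, where 1 WT CD8 library held 0 Cdkn1a UMIs.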

Other observations

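Over the 16 sums of 8 libraries and 2 classes, the genes with levels most like each member were found by Pearson's correlation of log CPM among 5727 or 5728 genes of at least 20 CPM, as a description, since the sums share libraries and the jump at stimulation. E2f1 was most like Mcm4 (r = 0.995), a subunit of the replicative helicase, Tfdp1 (0.995), the partner of E2F factors, and Pclaf (0.992), a PCNA-binding factor. Ccne1 was most like Pole3 (0.99), Apex1 (0.989) and Selenoh (0.987). Cdk4 was most like Ndufa12 (0.994), a complex I subunit, Slc25a39 (0.994) and Slc25a5 (0.993), mitochondrial carriers, and Cdk6 was most like Vars (0.987), the valyl-tRNA synthetase.

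Among the inhibitors, Cdkn1a was most like Itgav (0.99), Gadd45b (0.988) and Stat5a (0.988), and Cdkn1b was most like Kdm7a (0.992), Arhgap15 (0.991) and Fcho2 (0.99). Ccnd3 was most like Arhgef1 (0.989), Tmc6 (0.988) and Lgals8 (0.988). Rb1 was called between the classes in every group except stimulated WT cells, and moved in opposite directions with stimulation in WT CD4 and WT CD8 cells. Its correlations were lower, with Chd9 (0.935), Cd28 (0.928) and Tgfbr3 (0.914) as its closest genes. Ccnd2 was closest to Cdc5l (0.961). Among the members, E2f1 and Cdkn1a had r = 0.972 over the same sums, and Ccnd3 and E2f1 had r = -0.978.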
